A study of Mus musculus with 24 samples.

Results

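The 9 genes described here encode the enzymes that write and erase DNA methylation in mouse cells and the proteins that bring them to DNA: Dnmt1, Uhrf1, Hells and Uhrf2 (maintenance), Dnmt3a and Dnmt3b (de novo methylation) and Tet1, Tet2 and Tet3 (oxidation of methylcytosine). They were taken by gene symbol, not by any measured value, and each was listed in all 6 deposited tables, among 12420 genes listed in every table. The tables come from RNA sequencing of polyadenylated RNA from 24 mammosphere libraries in 8 groups. Mammospheres are floating spheres grown from mammary cells on plates that prevent attachment, in serum-free medium with EGF and FGF.

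All mice were of strain FVB/Hsd. Wild-type cells of 7-week-old mice, infected with the lentiviral vector pWPI, either empty (3 libraries) or carrying Myc-ER (3 libraries), were taken at passage 3, 72 h after plating. Myc-ER is Myc fused to the oestrogen receptor's hormone-binding domain, and the labels name no ligand. Tumour mammospheres came from mice aged 12 to 15 weeks and labelled MMTV-ErbB2 transgenic, in which a viral promoter active in mammary epithelium drives ErbB2, described in the file headers as a mutated form. They were not infected, were at passages 6 to 7, and were left untreated (5 libraries) or given 2.5 µM Nutlin-3 for 72 h (3 libraries), a compound that frees p53 from its inhibitor Mdm2. Uninfected Trp53 knockout mammospheres of 7-week-old mice (2 libraries) were also at passages 6 to 7. Uninfected wild-type cells of 7-week-old mice at passage 1 were sorted by PKH, a membrane dye diluted at each division, into a PKH-high (2 libraries) and a PKH-negative fraction (3 libraries), and PKH-negative cells infected with pWPI carrying Myc-ER were taken at passage 3, 72 h after plating (3 libraries). Passage and infection differ between the groups of several comparisons (tumour or knockout against empty vector, and Myc-ER in PKH-negative cells against uninfected ones), and there their effect and that of the genotype or fusion cannot be told apart. In the tumour comparison the age of the mice, 12 to 15 against 7 weeks, differs too and cannot be told apart from the tumour.

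Methylation of cytosines in CpG pairs is copied to the new strand after each round of DNA replication. Uhrf1 recognises the half-methylated sites left behind the replication fork and brings in Dnmt1, and Hells, a nucleosome remodeller, opens compact chromatin to this machinery. Dnmt3a and Dnmt3b methylate sites that were unmethylated before, and the Tet enzymes oxidise methylcytosine, which leads to its loss by dilution or by base excision repair.

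Dnmt1, Uhrf1 and Hells changed in the same direction in 5 of the 6 comparisons, so the sequences around their transcription starts are shown beside that of Uhrf2, the paralogue of Uhrf1. The RefSeq promoter table (GRCm38.p6) held all 9 genes with 14 starts between them, each window covering 250 bases before and 50 after a start. Both strands of each window were searched for TTCCCGC and TTGGCGC, core forms of the site bound by the E2F factors that drive replication genes. Of 32851 promoters 6.81% held either form. Among the 14 windows 4 held it, and they are printed 5′ to 3′ on the gene's strand with the match in capitals.
Dnmt1, start 3 of 3, chr9:20952574-20952873, minus strand: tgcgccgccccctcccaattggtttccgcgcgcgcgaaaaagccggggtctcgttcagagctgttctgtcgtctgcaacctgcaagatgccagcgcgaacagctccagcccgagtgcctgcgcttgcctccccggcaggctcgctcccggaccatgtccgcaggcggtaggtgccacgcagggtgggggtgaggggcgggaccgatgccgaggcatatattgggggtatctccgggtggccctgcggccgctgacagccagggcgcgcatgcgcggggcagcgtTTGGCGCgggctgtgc
Uhrf1, start 1 of 2, chr17:56303087-56303386, plus strand: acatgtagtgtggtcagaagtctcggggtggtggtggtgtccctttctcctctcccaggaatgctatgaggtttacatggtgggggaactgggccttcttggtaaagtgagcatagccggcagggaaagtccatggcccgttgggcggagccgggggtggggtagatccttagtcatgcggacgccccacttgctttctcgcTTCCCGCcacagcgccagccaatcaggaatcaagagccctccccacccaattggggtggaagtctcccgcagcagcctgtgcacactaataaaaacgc
Hells, chr19:38930740-38931039, plus strand: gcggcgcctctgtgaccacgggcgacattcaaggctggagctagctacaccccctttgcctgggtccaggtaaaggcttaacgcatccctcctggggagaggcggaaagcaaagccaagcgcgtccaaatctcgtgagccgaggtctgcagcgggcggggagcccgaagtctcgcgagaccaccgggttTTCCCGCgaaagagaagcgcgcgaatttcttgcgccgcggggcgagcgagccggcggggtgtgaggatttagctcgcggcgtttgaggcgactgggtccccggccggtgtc
Uhrf2, chr19:30030263-30030562, plus strand: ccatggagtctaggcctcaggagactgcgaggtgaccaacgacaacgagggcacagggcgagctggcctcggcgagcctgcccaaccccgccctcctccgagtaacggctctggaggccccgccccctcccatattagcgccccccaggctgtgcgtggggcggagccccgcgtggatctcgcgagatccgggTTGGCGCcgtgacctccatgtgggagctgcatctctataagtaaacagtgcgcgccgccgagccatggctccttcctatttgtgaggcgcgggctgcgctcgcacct
Counting the start as 0, the match lies at -48 to -42 in Uhrf1, -61 to -55 in Hells, -57 to -51 in Uhrf2 and 34 to 40 in Dnmt1. The windows of the other 2 Dnmt1 starts and of the other Uhrf1 start, and all windows of Dnmt3a, Dnmt3b and the Tet genes, do not hold these letters.
The E-box CACGTG, a sequence bound by Myc with Max, is present in 7.15% of all promoters and, among the 14 windows, in that of the third Dnmt3a start (chr12:3891494-3891793). The CHR forms TTTGAA and TTCGAA, present in 19.2% of all promoters, occur in the windows of the first Dnmt1 start and of Dnmt3b. The form is TTCCCGC in Uhrf1 and Hells and TTGGCGC in Uhrf2 and Dnmt1, and the Dnmt1 start with the match lies 356 bases from the nearest start of a principal transcript in GENCODE. CpG pairs stood at 0.91, 1.06 and 0.83 of the number base composition gives in the printed Dnmt1, Hells and Uhrf2 windows and at 0.47 in that of Uhrf1, against a median of 0.38 over all promoters. The highest ratio among the 14 windows was 1.17, at Tet2.

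In the annotation of GRCm38, the assembly also called mm10, the maintenance genes lie at chr9:20907209-20959888 (Dnmt1, minus strand), chr17:56303321-56323486 (Uhrf1, plus), chr19:38930915-38971051 (Hells, plus) and chr19:30030513-30093722 (Uhrf2, plus). The de novo genes lie at chr12:3806007-3914443 (Dnmt3a, plus) and chr2:153649450-153687730 (Dnmt3b, plus). The Tet genes lie at chr10:62804570-62908996 (Tet1, minus), chr3:133463679-133545139 (Tet2, minus) and chr6:83362373-83459084 (Tet3, minus). Dnmt3a, Dnmt3b, Tet2 and Tet3 overlap genes annotated on the opposite strand, and the sources used here do not say whether the counting used strand, so reads of those partners may be included in their values. Dnmt1, Tet1 and Tet3 also overlap genes annotated on the same strand, where strand cannot tell the reads apart.

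For single genes, means, log2 fold changes and adjusted p below are all copied from the authors' deposited table of the comparison. Means are normalised read counts averaged over the libraries of a group, with no value per library, so no spread can be given for a level. Errors after ± are standard errors worked back from the authors' p and log2 fold change, and 95% intervals come from them. For Nutlin-3 the authors' fold change is the mean over treated and untreated samples paired by tumour, and no error is given. A gene is said to rise, fall or change where the authors' adjusted p was below 0.05. Levels across genes are given as parts per 1000000 of the summed means of listed genes (ppm), per kilobase of merged exon. Each group's level is taken from 1 table, the ErbB2 table for untreated tumour cells. The tables were normalised separately, but the 3 tables with the empty-vector group gave levels in ppm for each of the 9 genes that differed at most 1.016-fold. The 2 tables with untreated tumour cells, 1 of them without 2 of the 5 libraries, gave levels that differed 1.197-fold for Dnmt3a, 1.18-fold for Dnmt3b and at most 1.107-fold for the other 7 genes.

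Per kilobase of merged exon, Dnmt1 and Uhrf1 had the highest levels in 7 of the 8 groups, Uhrf2 was highest in PKH-high cells, and Tet1 was lowest in all 8. In empty-vector mammospheres Dnmt1 stood at 19.4, Uhrf1 at 10.8, Uhrf2 at 10.2 and Hells at 2.28 ppm per kilobase. Dnmt3a stood at 2.44 and Dnmt3b at 0.377, and the Tet genes at 2.81 for Tet3, 2.09 for Tet2 and 0.0777 for Tet1. Tet3 and Tet2 were thus the main Tet transcripts and Dnmt3a the main de novo transcript.
Dnmt1 ranged from 13.3 in PKH-high cells and 19.2 in Nutlin-3-treated tumour cells to 39.9 in Myc-ER cells. Uhrf1 ranged from 10.8 with the empty vector and 12.5 in PKH-high cells to 42.6 in the knockout. Hells ranged from 2.28 with the empty vector to 9.07 with Myc-ER. Each spanned 2.99-fold, 3.94-fold and 3.97-fold, against 1.72-fold for Uhrf2, from 9.27 (Nutlin-3) to 16.0 (knockout).
Dnmt3a was at its lowest in the tumour cells, at 1.18 untreated and, in the Nutlin-3 table, at 0.989 untreated and 0.942 treated, and at its highest in PKH-high cells, at 2.65. Dnmt3b was highest in both groups with Myc-ER, at 1.06 in unsorted and 0.834 in PKH-negative cells, followed by PKH-high cells at 0.646. The other 5 groups lay between 0.298 and 0.413. Tet1 spanned 4.97-fold, from 0.0379 in PKH-negative to 0.189 in Myc-ER cells, Tet2 lay between 1.54 and 3.32, and Tet3 between 2.51 and 5.28, both highest in the knockout.
The ratio of Dnmt1 to Dnmt3a per kilobase was lowest in PKH-high cells (5.03) and with the empty vector (7.95) and highest in untreated tumour cells (25.5). Uhrf1 stood below Dnmt1 in the empty-vector group (ratio 0.557) and above it in untreated tumour cells (1.17) and in the knockout (1.37). The place of Uhrf2 depends on the length used: with the longest transcript in place of merged exons it stood at 24.8 in empty-vector cells, beside 24.4 for Dnmt1 and 12.8 for Uhrf1. Neighbouring levels in these orders cannot be separated, since no spread is given.

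**Figure D1:**
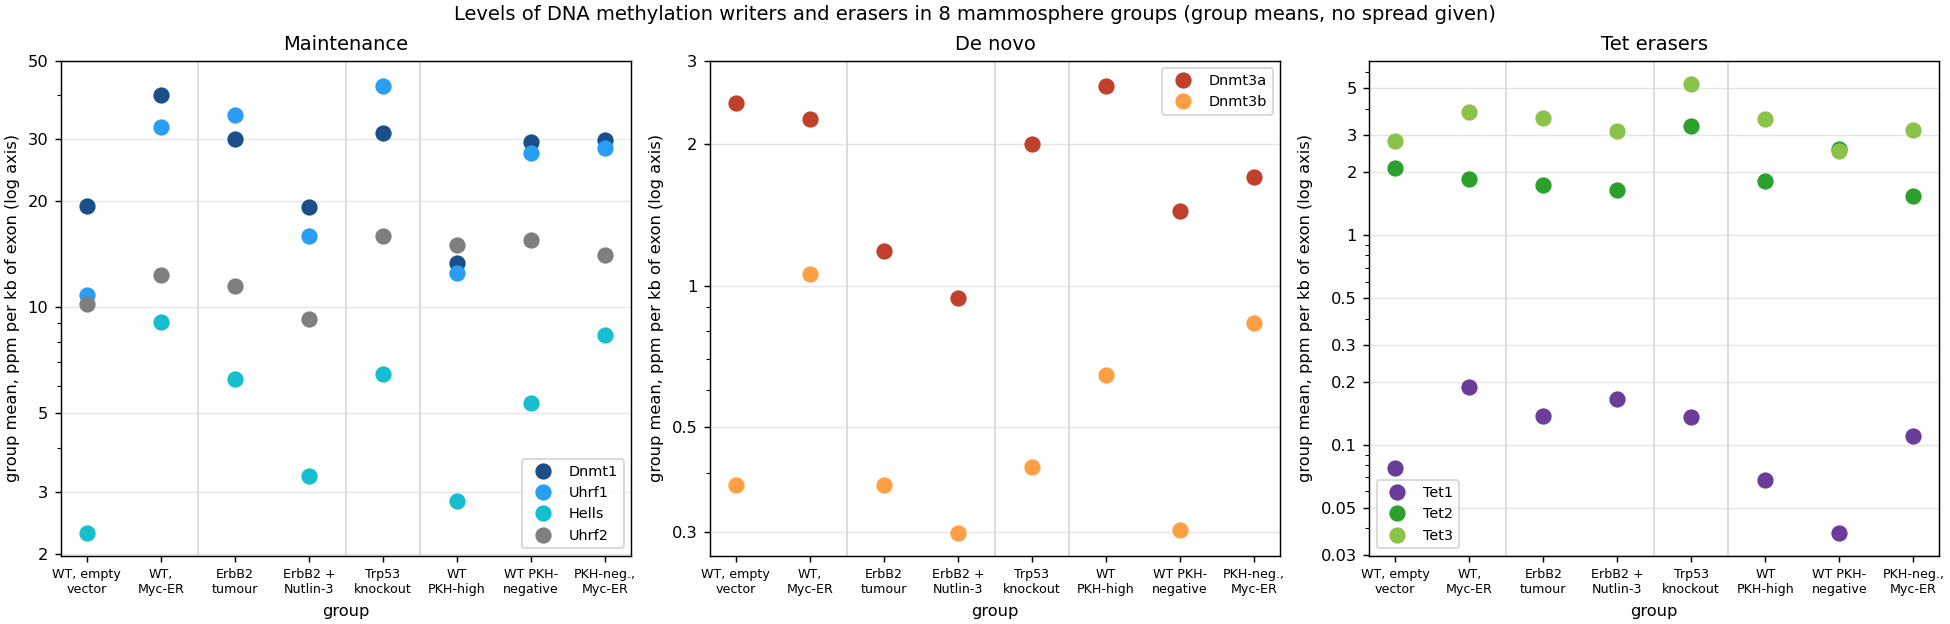
Level of each gene in the 8 groups, in 3 panels for maintenance genes, de novo methyltransferases and Tet genes, as the authors' group mean in ppm of summed means per kilobase of merged exon (log axis). Each point is 1 group mean without spread. Dnmt1, Uhrf1 and Hells are low in the empty-vector, Nutlin-3 and PKH-high groups, Dnmt3a is lowest in both tumour groups (1.18 and 0.942), and Dnmt3b and Tet1 are highest with Myc-ER (1.06 and 0.189).

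Trp53 and Myc moved in the direction of the labels. Trp53 had a mean of 2998 in the knockout against 4207 with the empty vector (-0.49 ± 0.12, adjusted p = 2.40e-04), with its target Cdkn1a at -3.22 ± 0.24. Myc was higher by 2.45 ± 0.20 and 2.03 ± 0.39 in the comparisons of Myc-ER. Such moves were not particular to these labels: Trp53 was also lower in wild-type PKH-high than PKH-negative cells (-0.605 ± 0.126), and Myc was higher in the knockout (0.75 ± 0.11). Whether the Myc row takes in reads of the fusion was not tested. Transcripts named Trp53 remained in the knockout. Erbb2, added after its values were seen, was lower in the tumour cells, at 736 against 1498 (-1.003 ± 0.37, adjusted p = 0.0271), opposite to the label. No label or header says if the mouse gene's row takes in transgene reads, so its level does not check that label. Although the tissue is labelled mammary gland, a list of 12 epithelial markers summed to 102 ppm in empty-vector cells, against 17200 for fibroblast markers. Among the 12 in the ErbB2 table, 8, including Epcam, Cdh1, Krt5, Krt14 and Krt8, were not listed and Elf5 had a mean of 0 in the tumour cells. These cultures were bulk samples, in which fewer cells of a type and less RNA per cell cannot be told apart. Comparisons that use the same libraries are not independent: the Myc-ER, ErbB2 and knockout tables share the empty-vector group, both PKH tables share the PKH-negative group, and the Nutlin-3 table uses 3 of the 5 untreated tumour libraries.

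With Myc-ER 7 of the 9 genes rose and none fell, where 26.7% of 13873 listed genes rose and 50.8% changed. In ErbB2 tumour cells 3 rose and 1 fell (13.5% and 13.6% of 13288 listed genes, 27.1% in either direction), and Nutlin-3 lowered 3 and raised none (7.03% and 7.71% of 13038, 14.7% in either direction). In the Trp53 knockout 5 rose and none fell (22.3% and 23.6% of 14699, 45.9% in either direction). PKH-high cells had 4 genes lower and 2 higher than PKH-negative cells (15.1% and 15.6% of 13959, 30.7% in either direction). Myc-ER in PKH-negative cells raised 2 and lowered none, a share near the background (18.9% higher and 18.5% lower of 14382, 37.5% in either direction).
The median log2 fold change of the 9 genes was 0.96 with Myc-ER, 0.31 in the tumour, -0.20 with Nutlin-3, 0.56 in the knockout, -0.22 in PKH-high cells and 0.16 with Myc-ER in PKH-negative cells. Over all listed genes the medians lay between -0.02 and 0.03. No gene changed in all 6 comparisons. Dnmt1, Uhrf1 and Hells each changed in 5, 3 times upward and 2 times downward, whereas Tet2 changed in 1. How many of all listed genes changed as often was not counted, so these numbers are a description.

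**Figure D2:**
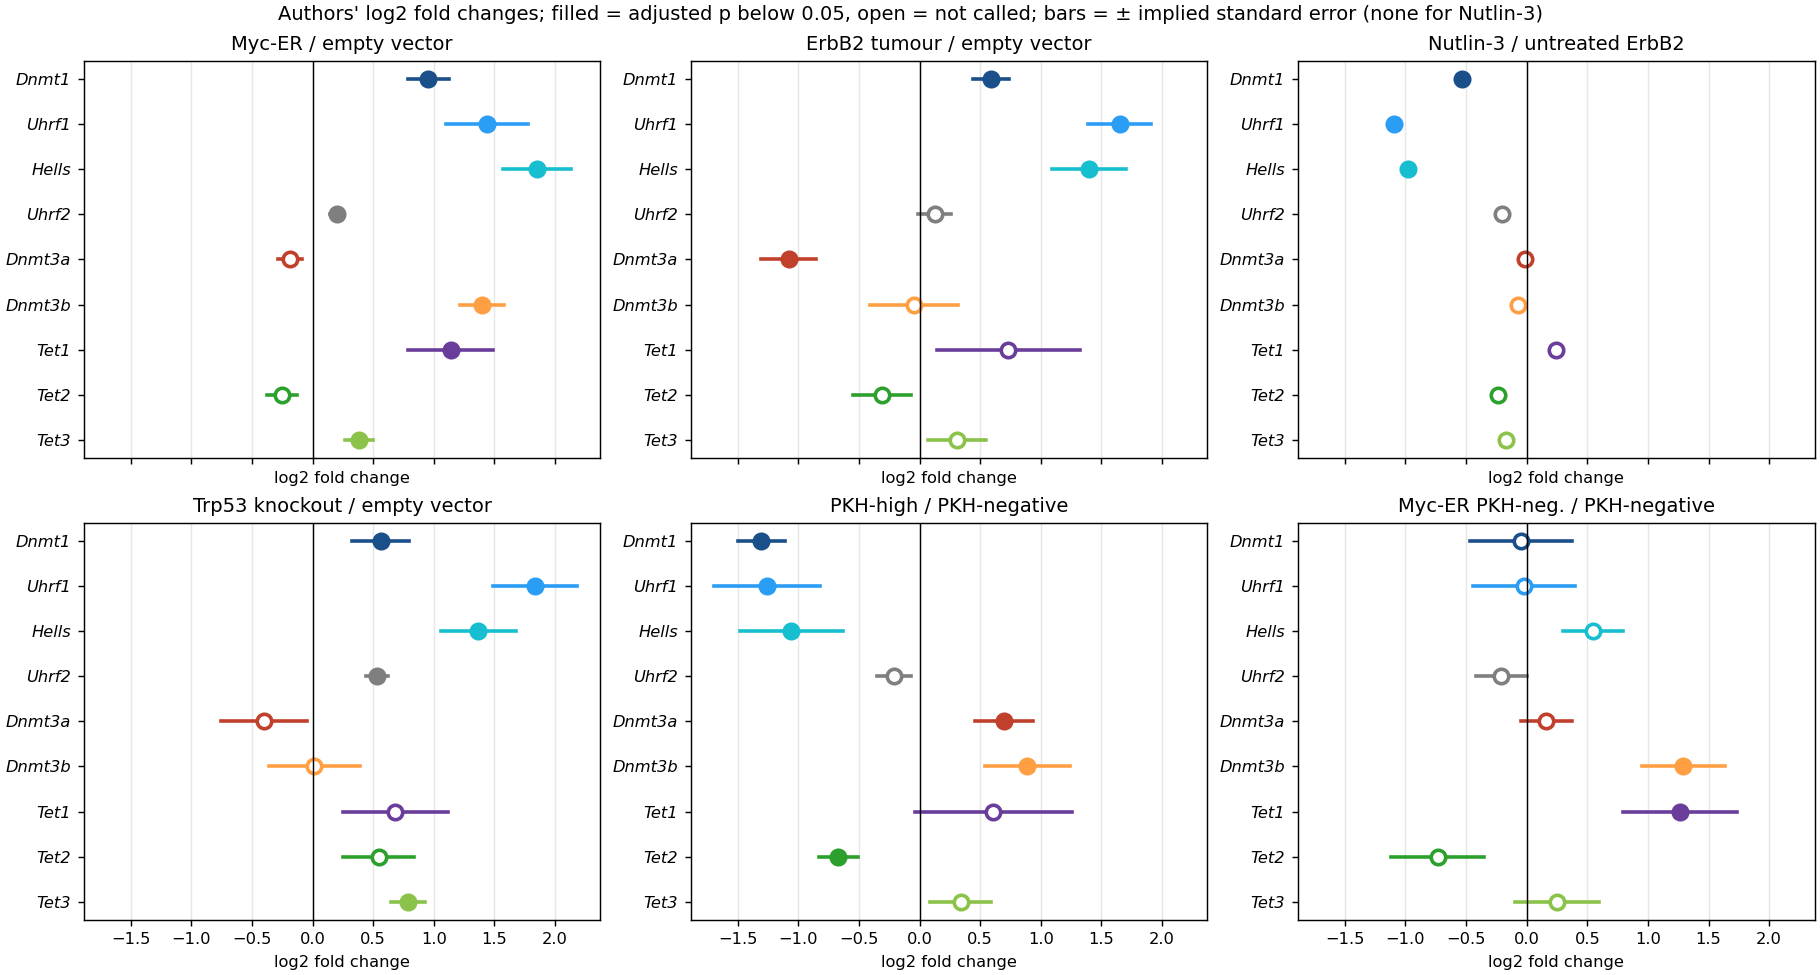
The authors' log2 fold change of each gene (horizontal axis) in the 6 comparisons, 1 per panel. Filled points had an adjusted p below 0.05, open points did not, and bars are the standard error implied by the authors' p, not available for Nutlin-3. Dnmt1, Uhrf1 and Hells lie to the right in 3 panels, to the left with Nutlin-3 and in PKH-high cells, and in the last panel the filled points are Dnmt3b (1.29) and Tet1 (1.26).

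Dnmt1, the maintenance methyltransferase, went from a mean of 6133 with the empty vector to 11994 with Myc-ER (0.96 ± 0.17, adjusted p = 1.48e-07). In tumour cells it stood at 8491 against 5639 (0.59 ± 0.15, adjusted p = 4.94e-04), and in the knockout at 9263 against 6246 (0.56 ± 0.24, adjusted p = 0.0384). Nutlin-3 took it from 7875 to 5433 in tumour cells (-0.53, adjusted p = 1.35e-10). The lowest level was in PKH-high cells, at 3819 against 9503 in PKH-negative cells (-1.31 ± 0.20, adjusted p = 6.05e-10), the decrease with the smallest adjusted p among the 9 genes in that table. It did not pass with Myc-ER in PKH-negative cells, at 9962 against 10336 (-0.05 ± 0.42, adjusted p = 0.943, 95% interval -0.87 to 0.77).

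Uhrf1, the reader of half-methylated DNA, rose from 1973 to 5649 with Myc-ER (1.44 ± 0.34, adjusted p = 9.31e-05), from 1807 to 5736 in tumour cells (1.65 ± 0.26, adjusted p = 8.02e-09) and from 2002 to 7304 in the knockout (1.83 ± 0.35, adjusted p = 1.1e-06). In the tumour and knockout tables these were the largest fold changes of the 9 genes. Nutlin-3 lowered it from 5555 to 2606 (-1.09, adjusted p = 1.98e-26). PKH-high cells had 2063 against 5111 (-1.26 ± 0.44, adjusted p = 0.0168). In PKH-negative cells its means were 5463 with Myc-ER and 5558 without (-0.02 ± 0.42, adjusted p = 0.976, 95% interval -0.85 to 0.81), which did not pass and leaves room for changes of either sign.

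Hells, the remodeller, had the largest increase of the 9 genes with Myc-ER, from 705 to 2660 (1.85 ± 0.28, adjusted p = 3.06e-10), rank 139 of 3703 genes that rose in that table. In tumour cells it rose from 646 to 1729 (1.40 ± 0.31, adjusted p = 6.32e-05) and in the knockout from 716 to 1874 (1.37 ± 0.31, adjusted p = 6.58e-05). It fell from 1836 to 919 with Nutlin-3 (-0.98, adjusted p = 7.53e-12) and stood at 787 against 1687 in PKH-high cells (-1.06 ± 0.42, adjusted p = 0.0423). With Myc-ER in PKH-negative cells it was 2714 against 1835 (0.54 ± 0.25, adjusted p = 0.0689), short of the threshold. Hells thus followed Uhrf1 in the first 5 comparisons, with the PKH-high result closest to the threshold.

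Uhrf2, which shares the domains of Uhrf1 but does not replace it in maintenance in mouse embryonic stem cells, changed in 2 of the 6 comparisons. It rose from 3751 to 4319 with Myc-ER (0.20 ± 0.06, adjusted p = 0.00142) and from 3825 to 5531 in the knockout (0.53 ± 0.09, adjusted p = 5.75e-08). The rise in the knockout was close to that of Dnmt1 there (0.56 ± 0.24). The 4 other comparisons did not pass, with log2 fold changes from -0.21 in PKH-high cells to 0.12 in tumour cells. Relative to Uhrf2, Uhrf1 per kilobase went from 1.06 with the empty vector to 2.64 with Myc-ER, 3.07 in tumour cells and 2.66 in the knockout, and was 0.828 in PKH-high cells.

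Among changes that passed, those of the de novo enzymes were opposite in sign to Dnmt1, Uhrf1 and Hells in PKH-high cells, and that of Dnmt3a also in tumour cells. Dnmt3a fell in ErbB2 tumour cells, from 1601 to 753 (-1.08 ± 0.23, adjusted p = 3.74e-05), the only gene of the 9 that fell in that table. It was higher in PKH-high cells, at 1712 against 1051 (0.70 ± 0.24, adjusted p = 0.0154). In the other 4 comparisons it did not pass: its means were 1529 against 1740 with Myc-ER (-0.18 ± 0.10, adjusted p = 0.0956), 1339 against 1773 in the knockout (-0.40 ± 0.36, 95% interval -1.09 to 0.30), and 600 against 603 with Nutlin-3 (-0.02, adjusted p = 0.967). Tumour cells thus had low Dnmt3a means with and without Nutlin-3.

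Dnmt3b was a low transcript that rose in both comparisons of Myc-ER: from 82.4 to 221 in unsorted cells (1.40 ± 0.18, adjusted p = 1.32e-13) and from 73.7 to 193 in PKH-negative cells (1.29 ± 0.34, adjusted p = 8.83e-04). The first has the smallest adjusted p of the 9 genes in its table. PKH-high cells had 128 against 67.7 (0.89 ± 0.35, adjusted p = 0.0377). No change passed in tumour cells (73.6 against 75.9, 95% interval -0.76 to 0.67), in the knockout (84.9 against 84.1, 95% interval -0.72 to 0.75) or with Nutlin-3 (58.2 against 59.8). The ratio of Dnmt3a to Dnmt3b per kilobase was 2.13 and 2.04 in the groups with Myc-ER and 6.48 and 4.76 in their controls.

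Among the Tet genes, Tet1 rose with Myc-ER from 51.5 to 119 (1.14 ± 0.35, adjusted p = 0.00334) and in PKH-negative cells with Myc-ER from 27.9 to 77 (1.26 ± 0.47, adjusted p = 0.0218). These are low means, and its interval in the second was 0.35 to 2.18. The other 4 fold changes were all positive and did not pass, the largest in tumour cells (80.8 against 47.2, 0.73 ± 0.59) and the smallest with Nutlin-3 (0.24). Dnmt3b and Tet1 were thus the 2 genes of the 9 that rose in both settings with Myc-ER.
Tet2 changed in PKH-high cells, at 1185 against 1892 (-0.67 ± 0.16, adjusted p = 2.16e-04). With Myc-ER it did not pass in unsorted cells (1265 against 1508, -0.25 ± 0.12, adjusted p = 0.0709) or in PKH-negative cells (1174 against 2058, -0.73 ± 0.38, adjusted p = 0.121). In the knockout it was 2257 against 1540 (0.54 ± 0.29, adjusted p = 0.115), with an interval of -0.03 to 1.12 that includes 0. The means in tumour cells (1119 against 1390, -0.31 ± 0.24) and with Nutlin-3 (1054 against 1165, -0.24) did not pass either.
Tet3 rose in the knockout from 2049 to 3548 (0.79 ± 0.14, adjusted p = 2.31e-07) and with Myc-ER from 2008 to 2626 (0.38 ± 0.11, adjusted p = 0.00184). The other 4 did not pass, from -0.17 with Nutlin-3 to 0.34 ± 0.25 in PKH-high cells. In the knockout Tet3 and Uhrf2 had smaller adjusted p than Dnmt1, the maintenance enzyme, which was close to the threshold.

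The responses to Myc-ER in unsorted and in PKH-negative cells can be set side by side. Dnmt1, Uhrf1 and Hells rose in unsorted cells and did not pass in PKH-negative cells, whose uninfected controls already had Dnmt1 at 29.4 and Uhrf1 at 27.4 ppm per kilobase, against 19.4 and 10.8 with the empty vector. The controls differ in passage and infection, and the difference between these responses was not tested. Markers of other cell types also moved: with Myc-ER in unsorted cells macrophage markers summed to 46.8 ppm against 97.9 (9 of 11 listed fell), endothelial markers to 77 against 169 (6 of 10 fell) and fibroblast markers to 7280 against 17200 (6 of 9 fell). With Myc-ER in PKH-negative cells fibroblast markers summed to 6560 against 11800 (5 of 10 fell), endothelial markers to 27.6 against 44 (6 of 9 fell, 1 rose) and macrophage markers to 29.7 against 31.7 (2 of 7 fell, 1 rose). Their part in these results was not tested.
The knockout had macrophage markers at 23.5 against 97.5 ppm (10 of 11 fell, 1 rose), endothelial markers at 11.3 against 169 (9 of 10 fell) and epithelial markers at 54.2 against 102 (8 of 11 fell). Fibroblast markers there summed to 12800 against 17500 ppm (2 of 10 fell), with Fbln2, a matrix protein, at -2.89 ± 0.37 and the receptor gene Pdgfrb at -0.83 ± 0.17. In tumour cells 4 of 10 fibroblast markers fell and 1 rose (11000 against 17700 ppm), 5 of 7 listed macrophage markers fell and all 4 listed endothelial markers fell. With Nutlin-3, 1 fibroblast marker rose and 1 fell of 9 listed, and 1 macrophage marker of 9 rose (59.9 against 40.4 ppm). The part of these cells in the fold changes above was not tested either.
The gap in markers was widest between the PKH fractions: epithelial markers summed to 1240 ppm in PKH-high against 19.2 in PKH-negative cells (11 of 12 rose), macrophage markers to 1270 against 32.5 (11 of 11) and endothelial markers to 1310 against 44.7 (9 of 10). Fibroblast markers summed to 9270 in PKH-high against 11900 ppm in PKH-negative cells (4 of 10 fell, 1 rose), with the collagen gene Col1a2 at -1.39 ± 0.20 and the surface protein gene Thy1 at 2.41 ± 0.60. Krt18, at a mean of 10200 against 123, and Krt14, at 1746 against 25.1, show its size. The lower Dnmt1, Uhrf1, Hells and Tet2 and the higher Dnmt3a and Dnmt3b of PKH-high cells were measured in cultures that differ this much in markers of cell type, whose part in the result was not tested.

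Maintenance methylation takes place in S phase, so 20 replication and S-phase genes were set beside the 9 genes. All 20 rose with Myc-ER (median log2 fold change 1.17) and in the knockout (1.19), and 19 rose in tumour cells (1.17). All 20 fell with Nutlin-3 (-0.81) and 14 fell in PKH-high cells (-0.93). With Myc-ER in PKH-negative cells 1 rose, Cdt1, a factor that licenses replication origins (0.42 ± 0.12), and the median was 0.02.
The proliferation marker Mki67 was at 1.95 ± 0.40 in the knockout and -1.40 with Nutlin-3, the cyclin gene Ccna2 at 1.70 ± 0.32 in tumour cells and -1.41 ± 0.46 in PKH-high cells, and the origin licensing factor Cdc6 at 1.77 ± 0.37 with Myc-ER.
Uhrf1 lay above the median of the list by 0.27 with Myc-ER, 0.48 in tumour cells and 0.65 in the knockout, and differed from it by -0.28 with Nutlin-3. Hells, at 1.85, exceeded all 20 with Myc-ER. Dnmt1 was below all 20 in tumour cells and below 19 of 20 in the knockout, and in PKH-high cells 18 of the 20 lay above it. Its rises were therefore smaller and its fall in PKH-high cells larger than those of most of the list, as a description.
Dnmt3b and Tet1 did not keep to the list in every comparison. With Myc-ER in PKH-negative cells both exceeded all 20, and in PKH-high cells both were positive while the list was negative. There Tet1 did not pass (0.608 ± 0.645), and Dnmt3a (0.695) and Tet3 (0.339, which did not pass) were positive too. With Myc-ER in unsorted cells Dnmt3b and Tet1 lay within the list, with 4 and 11 of the 20 above them. Dnmt3a lay below all 20 with Myc-ER, in tumour cells and in the knockout. How far the maintenance genes moved with the share of cycling cells was not tested.

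**Figure D3:**
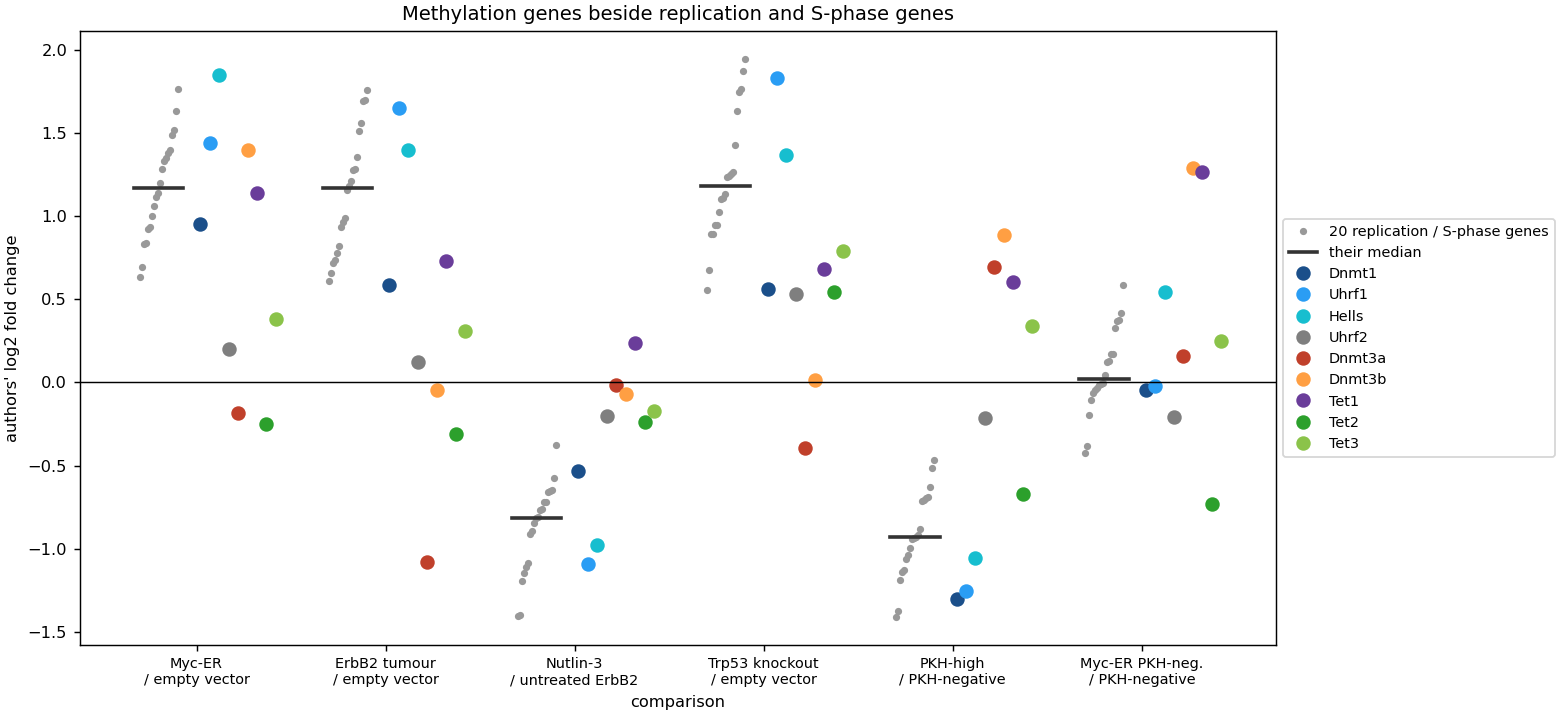
The authors' log2 fold changes (vertical axis) of the 9 genes, in colour, beside 20 replication and S-phase genes, in grey and sorted, in each comparison. The bar marks the median of the grey points, 1.17 with Myc-ER and -0.93 in PKH-high cells. Uhrf1 and Hells lie within or above the grey range with Myc-ER, in tumour cells and in the knockout, and Dnmt3b and Tet1 lie above it in the last 2 comparisons.

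Partners of maintenance methylation were led by Cdca7 and Cdca7l; Cdca7 binds Hells and activates it, and Cdca7l is its paralogue. Of 11 partners 7 rose and 1 fell with Myc-ER, 6 rose in tumour cells and 6 in the knockout, 5 fell with Nutlin-3 and 5 in PKH-high cells, and 3 rose with Myc-ER in PKH-negative cells. Their medians were 0.57, 0.37, 0.74, -0.12, -0.37 and 0.04 in that order. The shares of all listed genes that changed were, in the same order, 50.8%, 27.1%, 45.9%, 14.7%, 30.7% and 37.5%. Counted in either direction, these partners are near those shares in the knockout and with Myc-ER in PKH-negative cells. All partners that changed in these comparisons rose, where 22.3% and 18.9% of all listed genes rose, and no difference was tested. Cdca7l went from 150 to 1345 with Myc-ER (3.11 ± 0.19, adjusted p = 6.63e-56) and Cdca7 from 277 to 1828 (2.64 ± 0.27, adjusted p = 1.32e-20), more than any of the 9 genes.
In PKH-negative cells, where Hells did not pass, Cdca7 rose from 467 to 1668 with Myc-ER (1.78 ± 0.23) and Cdca7l from 512 to 1382 (1.34 ± 0.33). Cdca7l also rose in tumour cells (2.44 ± 0.24) and in the knockout (2.43 ± 0.23), with Cdca7 at 1.36 ± 0.25 and 2.22 ± 0.32, and Nutlin-3 lowered both (-0.82 and -0.87). In PKH-high cells neither passed, and the largest falls were those of the chromatin assembly gene Chaf1a (-1.04 ± 0.35) and the ligase gene Lig1 (-0.94 ± 0.38). Chaf1a, Lig1 and Pcna also belong to the replication list.

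In a list of partners of de novo methylation and related genes, not all of them direct partners, 5 of 6 listed rose with Myc-ER. Over all listed genes 26.7% rose and 50.8% changed there, and the difference from the other comparisons was not tested. The 5 included Trim28 (0.70 ± 0.16) and Setdb1 (0.69 ± 0.10), which keep repeats and imprints silent, and Dnmt3l (0.66 ± 0.29, adjusted p = 0.0496), a cofactor of Dnmt3a and Dnmt3b without enzyme activity of its own. In the knockout Setdb1 rose (0.42 ± 0.11), and with Myc-ER in PKH-negative cells the tRNA methyltransferase gene Trdmt1 rose (0.90 ± 0.23). In tumour cells, with Nutlin-3 and in PKH-high cells 0 of the 6 changed by the authors' DESeq2 adjusted p. At an unadjusted p below 0.05 the counts were 1, 0 and 0. Over all listed genes 27.1%, 14.7% and 30.7% changed there by the adjusted p, and with 6 genes no difference from these shares was tested.

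Of 10 genes for proteins that bind methylated DNA, Mbd1 had the largest fall. Mbd1, a transcriptional repressor, was at 2006 against 4253 with Myc-ER (-1.07 ± 0.19), at 1664 against 5853 with Myc-ER in PKH-negative cells (-1.77 ± 0.20, adjusted p = 1.42e-16), and at 2616 against 5381 in PKH-high cells (-1.03 ± 0.16). The zinc finger repressor Zbtb4 fell with it in both comparisons of Myc-ER (-1.14 ± 0.22 and -0.93 ± 0.29) and rose with Nutlin-3 (0.38). Mbd4, a glycosylase that repairs the mismatch left when methylcytosine is deaminated, rose with Myc-ER (0.83 ± 0.26), in tumour cells (0.74 ± 0.23) and in the knockout (1.34 ± 0.26). In all, 3 rose and 3 fell with Myc-ER, 1 rose in tumour cells, 1 rose with Nutlin-3, 5 rose in the knockout, 1 fell in PKH-high cells, and 1 rose and 4 fell with Myc-ER in PKH-negative cells. Over all listed genes 50.8%, 27.1%, 14.7%, 45.9%, 30.7% and 37.5% changed, in the same order of comparisons. Counted in either direction, the shares with Myc-ER, in the knockout and with Myc-ER in PKH-negative cells are near this background. All 5 that changed in the knockout rose, where 22.3% of listed genes rose, and no difference was tested.

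Of 16 genes that complete or control demethylation 7 rose and 4 fell with Myc-ER, 2 and 4 in tumour cells, 1 and 3 with Nutlin-3, 5 and 2 in the knockout, 4 and 3 in PKH-high cells, and 4 and 1 with Myc-ER in PKH-negative cells. The shares of all listed genes that changed were, in the same order, 50.8%, 27.1%, 14.7%, 45.9%, 30.7% and 37.5%. The counts in the knockout and with Myc-ER in PKH-negative cells are near these shares, and no difference from them was tested. Parp1, a DNA break sensor, went from 2111 to 7565 with Myc-ER (1.80 ± 0.24), and the uracil glycosylase gene Ung from 241 to 603 (1.29 ± 0.25). Cxxc4, whose protein binds Tet2, was a low transcript that rose with Myc-ER from 16.6 to 66.2 (1.87 ± 0.36) and in the knockout from 16.9 to 121 (2.73 ± 0.49), while its paralogue Cxxc5 fell there (-1.41 ± 0.12).
The glycosylase gene Neil3 moved as the maintenance genes did outside the comparisons of Myc-ER: 1.70 ± 0.37 in tumour cells, 1.54 ± 0.43 in the knockout, -1.30 with Nutlin-3 and -1.42 ± 0.44 in PKH-high cells. Gadd45a, a p53 target reported to assist demethylation, fell in tumour cells from 3527 to 918 (-1.91 ± 0.34) and rose with Nutlin-3 from 1075 to 1645 (0.56). Its relative Gadd45b was higher in PKH-high cells, at 1549 against 448 (1.74 ± 0.37).

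Genes that supply or clear the cofactors of these enzymes were counted beside the 26.7%, 13.5% and 22.3% of all listed genes that rose with Myc-ER, in tumour cells and in the knockout. Of 11 listed, 6 rose and 1 fell with Myc-ER, 5 rose and 1 fell in tumour cells, 6 rose and 2 fell in the knockout, and 5 rose and 1 fell with Myc-ER in PKH-negative cells. With Nutlin-3 1 rose and 2 fell, and 2 fell in PKH-high cells. Over all listed genes 37.5% changed with Myc-ER in PKH-negative cells, 14.7% with Nutlin-3 and 30.7% in PKH-high cells. Ahcy, which removes the inhibitory product of methyl transfer, went from 2240 to 9645 with Myc-ER (2.09 ± 0.12, adjusted p = 2.54e-67), from 3122 to 9971 in PKH-negative cells with Myc-ER (1.66 ± 0.14) and from 2283 to 5490 in the knockout (1.26 ± 0.16).
Mtr, the methionine synthase, rose from 767 to 1881 with Myc-ER (1.29 ± 0.13) and from 950 to 1924 in PKH-negative cells with Myc-ER (1.01 ± 0.13). Idh2, the mitochondrial isocitrate dehydrogenase, rose with Myc-ER (1.23 ± 0.31), in PKH-negative cells with Myc-ER (1.20 ± 0.44), in the knockout (1.32 ± 0.34) and in tumour cells (1.11 ± 0.33), and fell with Nutlin-3 (-0.38). Idh1, its counterpart in the cytosol, was at 18520 against 6903 in tumour cells (1.41 ± 0.27), rose further with Nutlin-3 (0.31) and was lower in PKH-high cells (-0.63 ± 0.16). The median log2 fold change of the cofactor genes was 0.50 with Myc-ER and -0.19 in PKH-high cells, against -0.02 and 0.01 over all listed genes.

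**Figure D4:**
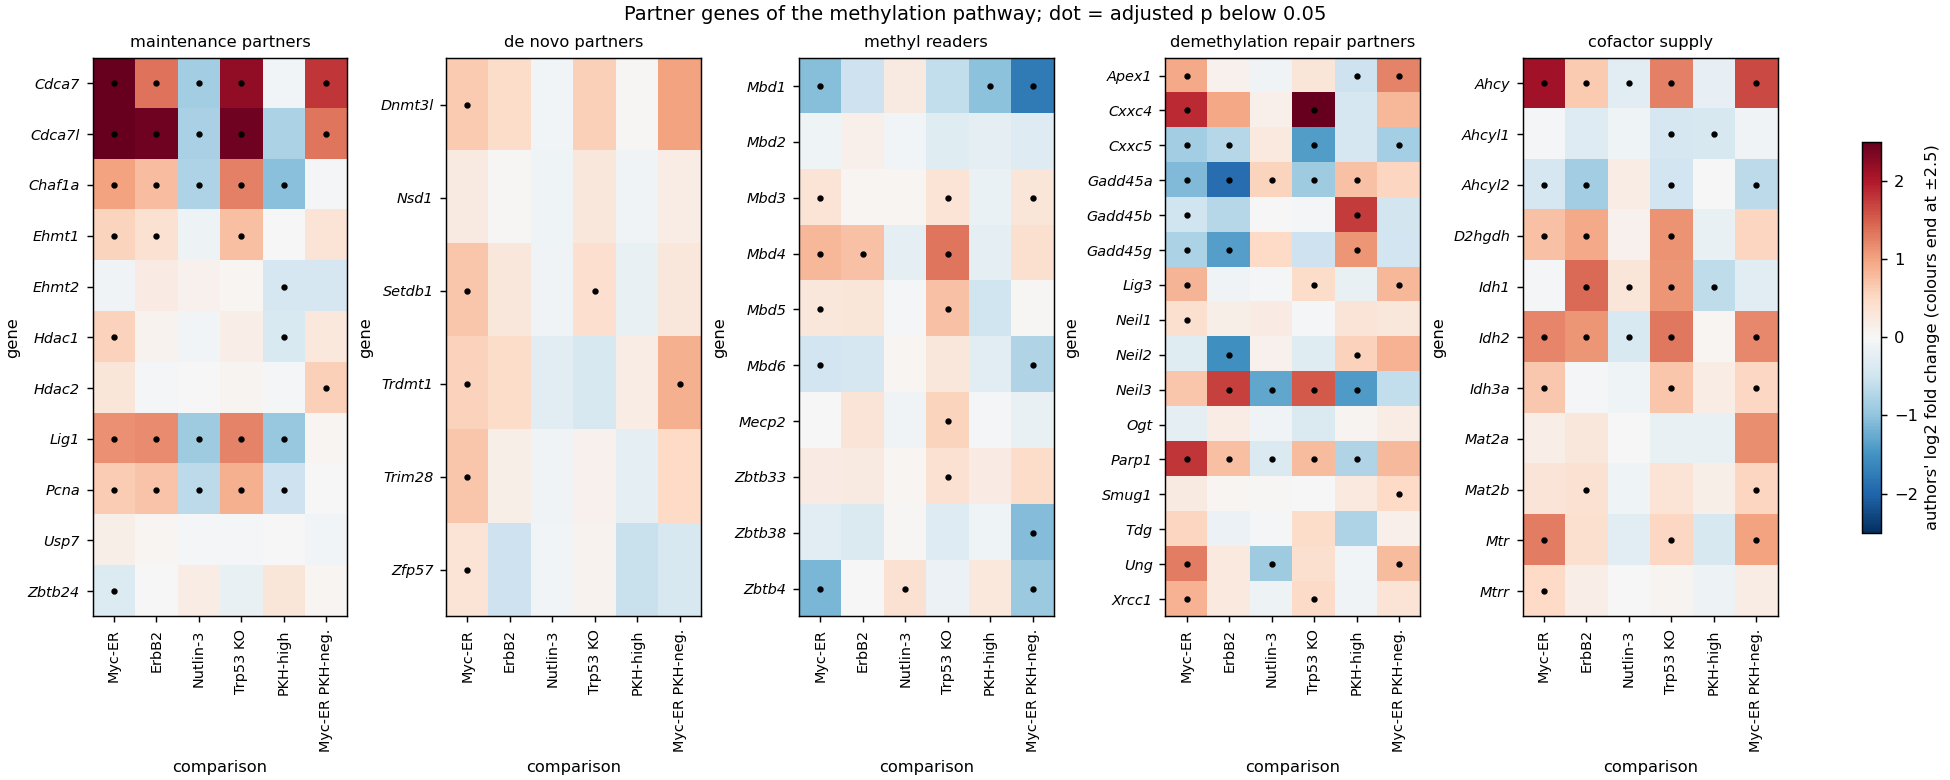
The authors' log2 fold changes (colour, red higher and blue lower, colours ending at 2.5 in either direction) of partner genes in 5 lists, with genes as rows and the 6 comparisons as columns. Dots mark an adjusted p below 0.05. Cdca7 and Cdca7l are the deepest red of the maintenance partners with Myc-ER (2.64 and 3.11), Mbd1 is blue with Myc-ER and in PKH-high cells, and Ahcy and Idh2 are red in both comparisons of Myc-ER.

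The genes whose fold changes over the 6 comparisons were most like those of a member were found by the root mean square difference among the 12420 genes in all tables, as a description over 6 comparisons that share libraries. For Uhrf1 these were Cdca5 (0.08), Ercc6l (0.09) and Cdca2 (0.09), and for Hells Lmnb1 (0.15), Wdhd1 (0.17) and Chek1 (0.18). Uhrf1 and Hells differed from each other by 0.37. Dnmt1 was nearest to Eri2 (0.19), Cd34 (0.19) and Ppm1d (0.21), and stood at 0.74 from Uhrf1 and 0.67 from Hells. For Dnmt3b the nearest were led by Psmg3 (0.20), for Dnmt3a by Mgat3 (0.10), for Uhrf2 by Prosapip1 (0.04), for Tet1 by Lmln, for Tet2 by Trim56 (0.12) and for Tet3 by Dusp11 (0.10). Dnmt3b and Tet1 differed from each other by 0.46.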

How the data were processed

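Per the labels' protocols, library preparation used a TruSeq RNA kit. The submitters' processing notes name CASAVA 1.9, TopHat2 2.0.8, Bowtie2 2.1.0, SAMtools 0.1.18, HTSeq 0.5.3p9 and DESeq2 1.10.1, with build mm10. Each deposited table gives a signal, the mean normalised count of each group over biological replicates, the authors' log2 fold changes (paired by tumour for Nutlin-3) and the authors' p-values, per the file headers, for genes with a mean above 10; some genes above it are missing for reasons the headers do not give.

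Values per library were not analysed here, so no test on samples was run. A gene was called at the authors' adjusted p below 0.05, which equalled the recomputed Benjamini-Hochberg adjustment over the listed genes. Summed means were 36651122 to 48054435 per group and table, and depth per library is unknown. The knockout table holds 3 entries that name no gene (28.2% and 29.7% of the summed means of knockout and control), which were left out of sums. The log2 ratio of the group means exceeds the authors' fold change in size for 13334 of 13873 genes in the Myc-ER table, and for most genes of the other tables apart from that of Nutlin-3. Standard errors are the size of the fold change over the normal quantile for the authors' p. The control that 3 headers call wild type was taken to be the empty-vector group, the only unsorted wild-type control in the labels.

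Coordinates and exon lengths come from GENCODE M21 (GRCm38) and promoters from RefSeq (GRCm38.p6). Tables were handled in Python 3.11.15 with pandas 2.3.3, numpy 2.4.6 and scipy 1.17.1, and the calling steps were tested on simulated data. The 9 genes, the gene lists, the motifs and the markers were chosen with earlier results of these data known. By rule, the text names all 9 genes, up to 3 called genes per list and table with the largest fold change, Myc, Trp53, Cdkn1a and Mki67, and the 3 genes most like each of the 9. Alternatives were other thresholds on the adjusted p, fold minimums, Holm adjustment, a filter on low means, the ratio of means, centring and another gene length. An item of the list of cofactor genes is not reported here.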

Additional observations from a re-analysis of the deposited data

How the results depend on the processing

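The tables give group means only, so no replicate could be left out in turn, and that alternative was not run. No paired analysis was possible because the deposited tables hold no value per library. No member's fold change reversed its sign under any alternative run. Counts at an adjusted p below 0.1, or with an absolute log2 fold change of at least 0.5, stayed within 1.5 times the counts given. At an adjusted p below 0.1, however, 7 genes were higher and 2 lower with Myc-ER in unsorted cells. The 2 lower genes were Dnmt3a and Tet2. With a log2 fold change of at least 1, the called genes were 4 of 7 with Myc-ER (Dnmt3b, Hells, Tet1, Uhrf1), 1 of 3 with Nutlin-3 (Uhrf1), 2 of 5 in the knockout (Hells, Uhrf1) and 3 of 6 in PKH-high cells (Dnmt1, Hells, Uhrf1). With Holm adjustment they were 3 with Myc-ER, 2 in tumour cells (Dnmt3a, Uhrf1), 3 in the knockout (Tet3, Uhrf1, Uhrf2), 1 in PKH-high cells (Dnmt1) and 0 with Myc-ER in PKH-negative cells by the authors' DESeq2 p. At an adjusted p below 0.01 they were 2 in PKH-high cells (Dnmt1, Tet2) and 1 with Myc-ER in PKH-negative cells (Dnmt3b). A minimum mean of 100 left 1 there (Dnmt3b), since the mean of Tet1 is below it. The same filter removed Tet1 with Myc-ER in unsorted cells (mean 85.1), leaving 6 genes. In PKH-high cells it removed Dnmt3b (mean 91.9), leaving 5. For the 45 fold changes with an error, the log2 ratio of means and centring on the median of all genes stayed within 1 standard error of the authors' value. The 9 with Nutlin-3 have no error and moved by at most 0.09 and 0.03, Dnmt3a to -0.01 and -0.04. All 72 levels per kilobase moved with the longest transcript in place of merged exons.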

Other observations

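A list of 22 germline genes, many of them kept silent by promoter methylation in body cells, was mostly not listed: 9 were listed with Myc-ER, 5 in the tumour table, 5 with Nutlin-3, 7 in the knockout table, 6 in the PKH-high table and 7 with Myc-ER in PKH-negative cells. The tables leave out some genes for reasons the headers do not give, so a missing gene is not shown to be low. Dazl, a germ cell RNA-binding protein, had lower means than the empty-vector group in 3 comparisons. It was at 3.22 against 32.0 with Myc-ER (-2.80 ± 0.54, adjusted p = 1.09e-06), at 6.43 against 29.4 in tumour cells (-2.09 ± 0.69) and at 2.86 against 32.6 in the knockout (-3.02 ± 0.87). The 3 share the empty-vector libraries and are not independent. Dazl passed the minimum mean of 10 there only through the empty-vector group, and it was not listed in the comparisons without that group. Tdrd1, a factor of the piRNA pathway, rose with Myc-ER from 7.64 to 51.1 (2.39 ± 0.51, adjusted p = 1.17e-05) and in PKH-negative cells from 12.3 to 56.7 (2.04 ± 0.34, adjusted p = 2.75e-08). In unsorted cells Tdrd1 passed the minimum mean only through the Myc-ER group.
Sycp1, a protein of paired meiotic chromosomes, rose in both comparisons of Myc-ER (220 to 392, 0.82 ± 0.18, and 157 to 387, 1.22 ± 0.31) and was at 1.49 against 224 in the knockout (-6.63 ± 0.67, adjusted p = 2.55e-21). In the knockout comparison Sycp1 passed the minimum mean only through the empty-vector group. Sycp3 rose in the knockout from 25.7 to 89.4 (1.69 ± 0.63, adjusted p = 0.0197), and Piwil2 fell there from 71.3 to 18.3 (-1.89 ± 0.51) and in tumour cells from 64.4 to 14.1 (-2.10 ± 0.54). In PKH-high cells and with Nutlin-3, 0 of the 6 and 5 listed germline genes changed by the authors' DESeq2 adjusted p, and 1 and 0 had an unadjusted p below 0.05. Over all listed genes 30.7% and 14.7% changed there by the adjusted p, and no difference from these shares was tested. DNA methylation itself was not measured in these libraries.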
